A study of Mus musculus with 6 samples.

Results

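Zfp genes encode zinc finger proteins, and mouse genes of this kind carry names made of Zfp and a number. The group described here consists of the genes whose name is exactly Zfp followed by digits, that the deposited gene table marks as protein-coding, and whose mean over the 6 libraries was at least 3 FPKM. Of 28945 rows in the table, 358 carry such a name, 353 of these are protein-coding, and 165 reached the level. FPKM is the number of sequenced fragments scaled to transcript length and to library depth, so that levels can be set side by side between genes of different length. The members were thus chosen by their mean FPKM over both groups, so levels are given below as a description with no test.

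The libraries, 3 in each of 2 groups, hold RNA of splenic CD4+ T cells purified from mice. The DM group came from db/db mice, whose leptin receptor is mutated and which become obese and diabetic, and the CONT group from C57BL/6J mice. The sample labels say only DM and CONT, and the series' design text names the 2 kinds of mice. The strain background of the db/db animals and the ages are not given in the labels used here, so the leptin receptor genotype and any difference of strain cannot be told apart. Whether the 3 libraries of a group stand for 3 animals is not stated either, and p-values here rest on the spread between libraries, which could be technical. The series title names eldecalcitol, a vitamin D analogue, and store-operated calcium entry, but samples with eldecalcitol are not analysed here. Total RNA was extracted with Trizol in both groups.

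A C2H2 zinc finger is a short fold in which a pair of cysteines and a pair of histidines hold a zinc ion, and most Zfp proteins carry an array of such fingers that reads DNA. Many of them begin with a KRAB domain, which recruits Trim28 and through it the histone methyltransferase Setdb1, and these KRAB zinc finger proteins are best known for silencing retroelements. They arose largely by tandem duplication and lie in clusters of similar genes. A few members do other work: Zfp36, also called tristetraprolin, uses CCCH fingers to bind AU-rich mRNAs and direct their decay, and restrains activated T cells. Zfp598 is the ubiquitin ligase that marks collided ribosomes, and Zfp207 (BuGZ) works with the spindle and with Bub3 in mitosis.

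1 library, CONT replicate 1, was unlike the rest. Its log2 values correlated at a mean r of 0.878 with the other CONT libraries over all genes and 0.777 over the members, while each of the other 5 libraries had 0.915 to 0.949 and 0.847 to 0.946 with its own group. Ribosomal protein genes made up 6.16% of its FPKM total, against 12.02% to 16.4% in each other library. It was the highest library for 90 of the 165 members (54.5%), and for 40.1% of all 13106 genes tested. Its values were over 1.5 times the mean of CONT replicates 2 and 3 in 52 members and over 2 times in 23. The main results are therefore given with and without it. Cd4 was 82.4, 134 and 93.2 FPKM in DM libraries, against 220, 161 and 149 FPKM in CONT libraries, and 15 of 17 CD4 T cell identity genes had a fold change below 0, with none called. The mean log2 level of markers of other blood cells was 3.65, 3.13 and 4.73 in DM, against 1.92, 2.18 and 2.04 in CONT.

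Those markers of other cells differed in level between the groups list by list. The basophil and mast cell list had 5 of 7 tested genes called higher in DM, with a summed level of 95.3 to 372 FPKM in DM and 2.84 to 7.75 FPKM in CONT. The macrophage and monocyte list had 3 of 12 called higher, with 476 to 1396 FPKM in DM and 102 to 253 FPKM in CONT. Plasma cell genes had 2 of 10 called higher, with 4193 to 8567 FPKM in DM and 565 to 1806 FPKM in CONT, and dendritic cell genes 1 of 6, with 37.5 to 57.2 FPKM in DM and 16.9 to 35.6 FPKM in CONT. No gene was called in the B cell, neutrophil, erythroid, natural killer, platelet and CD8 lists, but fold changes lay above 0 for 10 of 10 neutrophil genes (median 2.64), 9 of 9 erythroid genes (2.33), 10 of 10 B cell genes (1.39), 4 of 4 platelet genes (0.87), 2 of 2 CD8 genes (0.72) and 4 of 7 natural killer genes (0.20). Summed neutrophil genes were 239 to 1379 FPKM in DM and 31.6 to 119 FPKM in CONT, erythroid genes 291 to 5411 FPKM in DM and 124 to 630 FPKM in CONT, and B cell genes 83.7 to 893 FPKM in DM and 27.3 to 59.4 FPKM in CONT. No marker of these lists was at 0 in all 6 libraries. In bulk RNA, fewer cells of a type and less RNA per cell cannot be told apart, and the part that other cells have in the results below was not tested.

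3 stretches of sequence from chromosome 17 are printed because the members with the smallest p-values for DM against CONT, Zfp53, Zfp943 and Zfp758, lie there. They are from RefSeq (GRCm38.p6), plus strand, 5′ to 3′. For Zfp53, chr17:21488738-21488987 gives the 250 bases before the RefSeq start, with the letters CCGGAAG, the core read by ETS factors, in capitals. For Zfp943, chr17:21962465-21962551 gives the 87 bases between its annotated start and that of Zfp942, which is read the other way. For Zfp758, chr17:22361401-22361452 gives the 52 bases between its start and that of Zfp944, again read the other way. In these last stretches the capitals mark the E-box CACGTG.
Zfp53: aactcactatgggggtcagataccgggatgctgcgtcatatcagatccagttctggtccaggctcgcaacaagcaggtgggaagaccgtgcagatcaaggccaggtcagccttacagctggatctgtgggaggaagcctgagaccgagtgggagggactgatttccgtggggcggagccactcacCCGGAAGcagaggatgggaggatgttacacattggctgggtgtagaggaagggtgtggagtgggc
Zfp943: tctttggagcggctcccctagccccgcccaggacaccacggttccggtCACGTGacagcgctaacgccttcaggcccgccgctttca
Zfp758: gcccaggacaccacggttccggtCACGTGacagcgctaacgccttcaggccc
The Zfp758 stretch is contained whole in the Zfp943 stretch, at positions 26 to 77 counted from its first base. The pair of genes on the plus strand and the pair on the minus strand thus start from near-identical DNA at separate places in the cluster.

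The members were expressed at modest levels. Their means over the 6 libraries had a median of 6.58 FPKM and ran between 3.004 and 59.2 FPKM, with 7 members at 20 FPKM or more, 31 at 10 to 20 FPKM, 73 at 5 to 10 FPKM and 54 below 5 FPKM. No member was at 0 in any library. Both groups averaged at least 3 FPKM for 145 members, while 18 reached the mean through CONT only and 2 through DM only. Just inside the threshold lay Zfp64, Zfp882 and Zfp933, with means of 3.004, 3.03 and 3.05 FPKM, and just outside it Zfp763, Zfp318 and Zfp808, with 2.98, 2.98 and 2.95 FPKM.

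**Figure D1:**
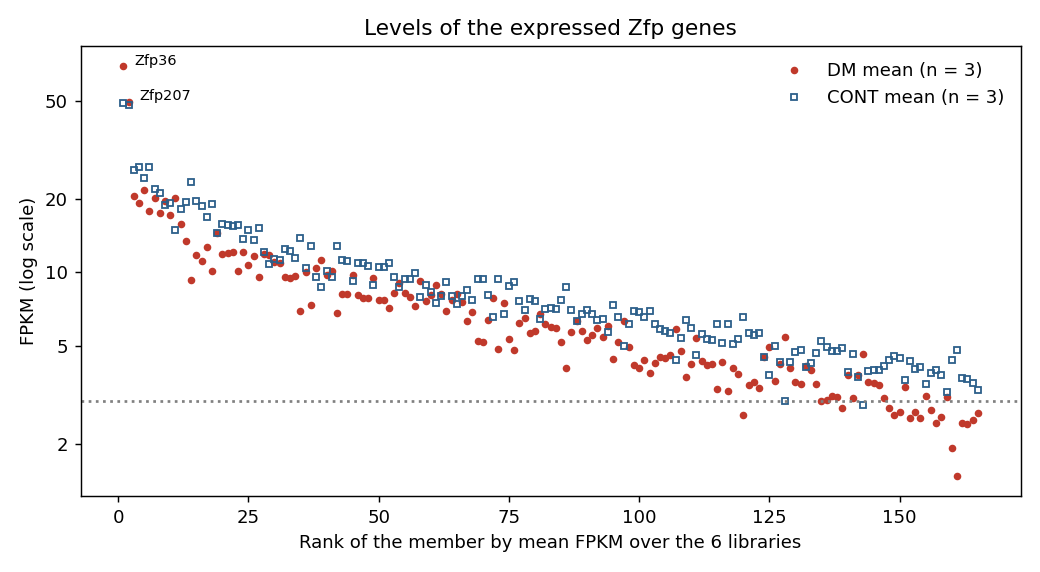
Mean FPKM (log scale) of the 165 members in DM (filled circles, n = 3) and CONT (open squares, n = 3), ranked by the mean over the 6 libraries. The dotted line is the level of 3 FPKM that chose the members. Zfp36 and Zfp207 stand above all others, and DM points lie below CONT points over most of the ranks.

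Zfp36 had the highest mean, 59.2 FPKM, and was also among the members that varied most in DM. It had 27.8, 97.8 and 82.1 FPKM in DM libraries, against 45.4, 53.4 and 48.8 FPKM in CONT libraries. The DM libraries lay on both sides of the CONT libraries, and the fold change of 0.30 ± 0.46 (SE; log2(FPKM + 1), DM minus CONT; adjusted p 0.694 in limma) was smaller than their spread and turned to -0.05 when every library was scaled to the same total. Without DM replicate 1 it was 0.85, and without DM replicate 2 it was -0.03.

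Zfp207 followed, with a mean of 49.0 FPKM. It had 59.7, 48.5 and 40.9 FPKM in DM libraries, against 52.4, 50.5 and 42.3 FPKM in CONT libraries. The groups overlapped fully, with a fold change of 0.03 ± 0.23. No further member reached 25 FPKM over the 6 libraries: Zfp445, a KRAB protein that maintains genomic imprints in mouse, averaged 20.5 ± 0.24 FPKM in DM and 26.3 ± 9.06 FPKM in CONT (SD, n = 3 each). Zfp740 averaged 19.2 ± 2.42 FPKM in DM and 26.8 ± 7.14 FPKM in CONT, and Zfp292 17.7 ± 3.08 FPKM in DM and 27.1 ± 8.99 FPKM in CONT. Zfp984 averaged 21.7 ± 4.49 FPKM in DM and 24.3 ± 4.62 FPKM in CONT, but 73.5% of its transcript 31-mers occur in other genes, so its level is uncertain. Zfp91, an atypical ubiquitin ligase of the noncanonical NF-κB pathway, averaged 20.2 ± 0.32 FPKM in DM and 21.8 ± 3.01 FPKM in CONT, and Zfp51 17.5 ± 4.68 FPKM in DM and 21.1 ± 5.88 FPKM in CONT. Apart from Zfp36 and Zfp207, these levels lay close to each other and their groups overlapped.

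The predicted proteins divided the members by structure, which the rule did not use. At least 1 C2H2 match was found in 162 members, with a median of 10 and a highest count of 36 in Zfp142. Zfp236 held 30 matches and Zfp646 held 27. The 3 members without a match were Zfp36, whose fingers are of the CCCH kind, Zfp330, a nucleolar protein, and Zfp703, a nuclear corepressor known as an oncogene in human breast tumours. The spacing searched for CCCH fingers had 2 matches each in Zfp36 and Zfp330. A KRAB pattern was found in 87 members and not in 78. The pattern is a match of residues in the longest translated sequence of a gene, so a member without it may still hold a KRAB domain. Members with the pattern had more fingers, a median of 12 against 6.5 without it. Their means had a median of 6.17 FPKM, against 7.22 FPKM without the pattern. On the genome, 63 members had another member within 100 kb. Chromosome 7 held 30 members, chromosome 17 held 24 and chromosome 13 held 17. A median of 4.15% of a member's transcript 31-mers occurred in another gene, and in 39 members the share was 20% or more, in 18 of them 50% or more. How the authors treated reads that match several genes is not known from these sources, so the values of those 39 are uncertain.

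Between the groups, no member was called changed. In the limma fit over 13106 genes, 0 of 165 members had an adjusted p below 0.05, where 1.52% of all genes tested were called, 0.252% lower and 1.27% higher in DM. The unadjusted p was below 0.05 for 20 members (12.1%), 19 of them lower in DM, against 16% of all genes tested, of which 6.24% were lower and 9.77% higher. The smallest adjusted p was 0.0956, for Zfp53. The authors' deposited table, made with a test that its header does not name, gives 1 member, Zfp53, a q-value below 0.05 (0.0136), against 4.97% of all rows, and marks 5 members as significant (Zfp871, Zfp142, Zfp169, Zfp329 and Zfp866), where 11% of all rows carry that mark.

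The fold changes of the members lay below 0 far more often than those of other genes. Of 165 members, 135 (81.8%) had a fold change below 0, against 51.2% of all genes tested. The median was -0.29 for the members, with quartiles of -0.47 and -0.07, against -0.01 for all genes tested and -0.04 for the 7796 other protein-coding genes of at least 3 FPKM. All 3 DM libraries lay below all 3 CONT libraries in 52 members (31.5%), against 13.2% of all genes tested, and above them in 5 members (3.03%), against 13.8%. Members that reached the level through 1 group only had to differ in that direction, and 18 of those 20 did so through CONT. Over the 145 members with means of at least 3 FPKM in both groups, 117 (80.7%) were below 0, the median was -0.27 and DM lay below CONT in 42 (29.0%). Over 7192 other protein-coding genes that met the same condition, 54.4% were below 0, the median was -0.05 and DM lay below CONT in 14.3%. Without CONT replicate 1 the median was -0.21 for the members and 0.01 for all genes, 77.6% of the members were below 0 against 48.1% of all genes, and DM lay below CONT in 60 members (36.4%) against 16.1% of all genes. The 57 members without overlap in either direction made up 34.5% of the members, against 27.1% of all genes. They became 87 (52.7%, against 41.0% of all genes) without DM replicate 2 and 102 (61.8%, against 51.1%) without CONT replicate 3, where fewer libraries make overlap rarer. With the other-cell marker score as a covariate, the median was -0.19 for the members and -0.12 for all genes, nearer to each other than without it. Below 0 were then 119 of 165 members and 7837 of 13106 genes. The score was 3.13 to 4.73 in DM and 1.92 to 2.18 in CONT libraries. It thus separates the groups, and this fit can hardly tell score and group apart. Scaling each library to the same total moved the median of the genes tested under that scaling to -0.32 and that of the members to -0.61, a distance of -0.29, close to the distance of -0.28 in the FPKM as deposited.

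**Figure D2:**
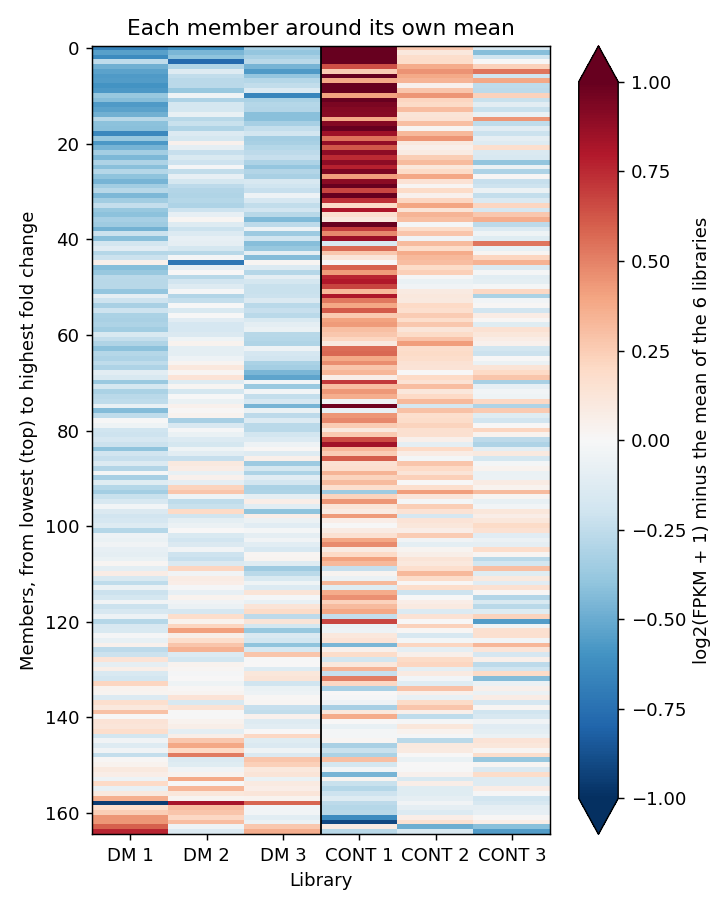
Each of the 165 members as a row, ordered from the lowest fold change (DM minus CONT) at the top to the highest at the bottom, with colour for log2(FPKM + 1) minus the mean of the 6 libraries, DM libraries left of the line and CONT libraries right of it. Blue DM cells and red CONT cells fill the upper rows, and the deepest red is in CONT replicate 1, the highest library for 90 members.

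The members together took 0.286%, 0.339% and 0.319% of all FPKM in DM libraries, against 0.702%, 0.456% and 0.358% in CONT libraries. The median member stood at 5.69, 5.92 and 5.597 FPKM in DM libraries, against 8.12, 6.87 and 6.31 FPKM in CONT libraries. Every DM library was below every CONT library in both measures, and the CONT libraries were far more spread than the DM libraries. Related zinc finger genes outside the group also had medians below 0. The 104 Zfp-number genes tested that fell short of the 3 FPKM level had a median of -0.21, with 80 below 0, and 23 Zbtb genes of at least 3 FPKM, which pair C2H2 fingers with a BTB domain, had a median of -0.36, with 22 below 0. Without CONT replicate 1 these medians were -0.09, with 59 of 96 below 0, and -0.19, with 20 of 23 below 0. Differences between these sets were not tested.

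Zfp53, on chr17:21488998-21510473 (GRCm38, GENCODE M21), has 15 C2H2 matches. It had 9.67, 11.1 and 9.80 FPKM in DM libraries, against 22.3, 18.2 and 16.4 FPKM in CONT libraries. The 3 DM libraries lay together and below every CONT library. The fold change was -0.83 ± 0.19 (SE; adjusted p 0.0956 in limma), and -0.71 without CONT replicate 1.

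Zfp943, on chr17:21962552-22071168, has 11 C2H2 matches. It had 4.46, 5.66 and 5.597 FPKM in DM libraries, against 9.44, 9.15 and 9.51 FPKM in CONT libraries. The CONT libraries were close to each other, CONT replicate 1 included, and well above all DM libraries. Its fold change was -0.74 ± 0.17 (adjusted p 0.0991), and -0.73 without CONT replicate 1.

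Zfp758, on chr17:22361453-22377281, has 12 C2H2 matches. It had 6.14, 8.48 and 5.98 FPKM in DM libraries, against 11.3, 13.1 and 14.0 FPKM in CONT libraries. The groups did not overlap, and CONT replicate 1 was the lowest of its group. Its fold change was -0.82 ± 0.20 (adjusted p 0.107), and -0.90 without CONT replicate 1.

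**Figure D3:**
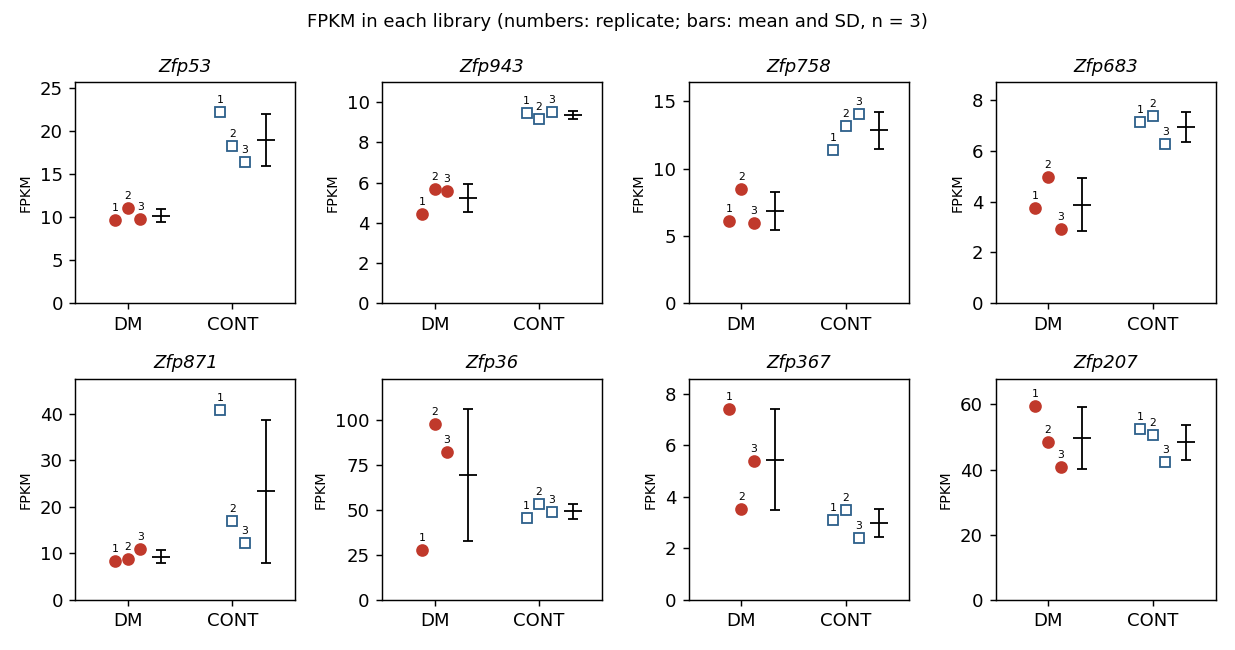
FPKM in each DM (filled circles) and CONT (open squares) library for 8 members, with the replicate number above each point and the mean and SD (n = 3) beside it. Zfp53, Zfp943, Zfp758 and Zfp683 show DM libraries below all CONT libraries with like CONT values, while Zfp871 has 1 CONT library of 40.8 FPKM far above the others and Zfp36 has DM libraries on both sides of CONT.

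The lowest fold changes of all belonged to members in which CONT replicate 1 stood high. Zfp871, with 15 C2H2 matches, had 8.305, 8.74 and 10.8 FPKM in DM libraries, against 40.8, 16.9 and 12.2 FPKM in CONT libraries. The groups did not overlap, but CONT replicate 3 was close to DM replicate 3, and the fold change of -1.07 ± 0.41 (adjusted p 0.288) was -0.59 without CONT replicate 1.

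Zfp169 had 1.35, 1.49 and 1.62 FPKM in DM libraries, against 10.2, 2.68 and 1.55 FPKM in CONT libraries. Its groups overlapped, and it had the largest coefficient of variation over the 6 libraries of all members, 111%, where the median member had 21.1%. Its fold change of -0.93 was -0.30 without CONT replicate 1.

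Zfp329 had 2.20, 2.74 and 2.94 FPKM in DM libraries, against 11.9, 4.59 and 3.29 FPKM in CONT libraries. Zfp866 had 4.65, 2.93 and 4.61 FPKM in DM libraries, against 13.7, 6.66 and 5.77 FPKM in CONT libraries. Both had DM below CONT throughout, with fold changes of -0.90 and -0.87, which were -0.44 and -0.53 without CONT replicate 1. Zfp142, Zfp831 and Zfp236 had fold changes of -0.80, -0.74 and -0.73, and -0.49, -0.27 and -0.37 without CONT replicate 1. Of these 3, only Zfp142 had groups that did not overlap.

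Zfp683 (Hobit), a regulator of tissue-resident memory and innate-like T cells, had the next lowest fold change. It had 3.74, 4.98 and 2.92 FPKM in DM libraries, against 7.16, 7.39 and 6.26 FPKM in CONT libraries. Every DM library lay below every CONT library, with a fold change of -0.72 ± 0.21 (adjusted p 0.179), and of -0.70 without CONT replicate 1. Zfp335, which T cells need to mature after the thymus in mouse, averaged 8.16 ± 1.08 FPKM in DM and 11.2 ± 4.33 FPKM in CONT, and its groups overlapped. With 1 library left out, its fold change ranged from -0.60 to -0.09.

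At the other end, 5 members had all DM libraries above all CONT libraries, where 13.8% of all genes tested did. Zfp367 had the highest fold change of all members. It had 7.42, 3.53 and 5.41 FPKM in DM libraries, against 3.10, 3.48 and 2.39 FPKM in CONT libraries. DM replicate 2 only just exceeded CONT replicate 2, and the fold change was 0.66 ± 0.27 (adjusted p 0.301). Zfp330 and Zfp593, whose yeast relative Bud20 acts in export of the large ribosomal subunit, had fold changes of 0.33 and 0.31, and Zfp991 and Zfp825 had 0.28 and 0.22 but -0.03 and -0.09 under scaling to the same total. Of the transcript 31-mers of Zfp991, 92.7% occur in other genes, and the shares were 69.7% in Zfp593, 47.5% in Zfp825 and 43.2% in Zfp330, which leaves Zfp367, at 16.4%, as the member of these 5 with less than 20%. Zfp760, in the same chromosome 17 cluster as Zfp53, had 5.98, 3.49 and 4.56 FPKM in DM libraries, against 3.90, 2.30 and 2.45 FPKM in CONT libraries. Its groups overlapped, and its fold change was 0.55 ± 0.25 (adjusted p 0.323), and 0.73 without CONT replicate 1. Zfp35, Zfp930, Zfp36 and Zfp622 complete the 10 highest, with fold changes between 0.22 and 0.46 and overlapping groups. Zfp622 turned to -0.10 under scaling to the same total.

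Among members that act on ribosomes and mRNA, Zfp598 was lower in DM in every library. It had 8.997, 10.5 and 9.26 FPKM in DM libraries, against 17.9, 16.6 and 11.2 FPKM in CONT libraries. The groups did not overlap, with a fold change of -0.59 ± 0.22 (adjusted p 0.270), and of -0.47 without CONT replicate 1. Zfp622, whose human and yeast relatives mature the large ribosomal subunit, had 7.68, 10.5 and 8.55 FPKM in DM libraries, against 6.49, 7.41 and 8.61 FPKM in CONT libraries, and its groups overlapped. Zfp106, an RNA-binding protein needed by motor neurons, averaged 15.7 ± 1.48 FPKM in DM and 18.2 ± 4.36 FPKM in CONT. Zfp830 (Omcg1), tied to splicing and required in the early embryo, averaged 11.1 ± 1.34 FPKM in DM and 11.4 ± 1.61 FPKM in CONT. Zfp106 and Zfp830 had overlapping groups.

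Zfp809, the KRAB protein that binds the primer binding site of murine leukaemia viruses in embryonic cells, had 6.40, 8.22 and 6.80 FPKM in DM libraries, against 12.03, 11.8 and 8.84 FPKM in CONT libraries. Its fold change was -0.54 ± 0.19 (adjusted p 0.266), and -0.47 without CONT replicate 1. Zfp638, whose human form NP220 silences unintegrated retroviral DNA, had 10.7, 12.4 and 9.09 FPKM in DM libraries, against 13.8, 15.995 and 14.8 FPKM in CONT libraries. Its fold change was -0.44 ± 0.18 (adjusted p 0.308), and -0.49 without CONT replicate 1. Neither gene had overlapping groups, and 52 of the 165 members (31.5%) had DM below CONT in this way, against 13.2% of all genes tested.

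Among the other transcription regulators, Zfp281, which holds back Nanog in mouse embryonic stem cells, averaged 11.1 ± 1.89 FPKM in DM and 18.7 ± 7.54 FPKM in CONT, with a fold change of -0.65, and of -0.35 without CONT replicate 1. Zfp148, which binds like G-rich sites, averaged 9.59 ± 1.09 FPKM in DM and 12.5 ± 1.87 FPKM in CONT. Zfp217, whose human form sits in a corepressor complex, averaged 10.2 ± 0.78 FPKM in DM and 15.6 ± 6.03 FPKM in CONT. With 1 library left out, the fold change of Zfp217 ranged from -0.73 to -0.24. The groups did not overlap for Zfp281 and Zfp217, nor for Zfp263 and Zfp652, whose fold changes were -0.35 and -0.70 and, without CONT replicate 1, -0.22 and -0.35. Zfp609, which works with Nipbl in mouse neural progenitors, Zfp687, a partner of human ZMYND8, and Zfp292 had fold changes of -0.55 each and overlapping groups, and without CONT replicate 1 these were -0.24, -0.21 and -0.30. Zfp131, Zfp706, Zfp703, Zfp512 and Zfp800 lay between -0.27 and 0.11 with overlapping groups. Zfp961, the member that varied least, had 6.44, 6.47 and 6.04 FPKM in DM libraries, against 6.32, 6.59 and 6.02 FPKM in CONT libraries.

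Groups of members by structure had medians on the same side of 0. Over all genes tested, DM lay below CONT in 13.2% and above in 13.8%. Members with the KRAB pattern had a median of -0.27, with DM below CONT in 29 of 87 (33.3%) and above in 2. Members without it had -0.33, with 23 of 78 (29.5%) below and 3 above. Members with 12 or more fingers had a median of -0.38, with DM below in 25 of 63 (39.7%) and above in none. Those with 6 to 11 fingers had -0.28, with 20 of 62 (32.3%) below and 2 above. Those with fewer than 6 had -0.16, with 7 of 40 (17.5%) below and 3 above. Across the 165 members, Spearman's rho of the fold change with the number of fingers was -0.24, with the mean level 0.13 and with the longest annotated transcript -0.38, as a description of genes that share the same 6 libraries. Members with 20% or more of shared 31-mers had a median of -0.19, and the others -0.32. Of the chromosomes with 10 or more members, chromosome 13 had a median of -0.38, chromosome 7 -0.37, chromosome 2 -0.28, chromosome 17 -0.24 and chromosome 8 -0.10. Without CONT replicate 1 the order differed, with -0.29 for chromosome 13, -0.26 for chromosome 7, -0.23 for chromosome 17, -0.16 for chromosome 8 and -0.11 for chromosome 2. The finger classes then had -0.26, -0.18 and -0.14, from most to fewest fingers.

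Transcript length went with the fold change in members and in other genes alike. For longest transcripts under 3000 bases the median was -0.17 over 56 members and 0.22 over 3479 other protein-coding genes of at least 3 FPKM. For 3000 to below 5000 bases it was -0.29 over 73 members and -0.12 over 2713 others, and for 5000 bases or more -0.52 over 36 members and -0.36 over 1600 others. Without CONT replicate 1 these medians were -0.16 and 0.10, -0.19 and -0.05, and -0.24 and -0.16. In these fits the members were below the others in each length class, by less without CONT replicate 1. With the other-cell marker score as a covariate the medians were -0.15 and 0.05 in the shortest class, -0.18 and -0.22 in the middle class, where the members lay above the others, and -0.40 and -0.39 in the longest. The ratio of CONT replicate 1 to the mean of the other CONT libraries was higher in longer members, with a Spearman's rho of 0.48 across the 165 members, and CONT replicate 1 was the highest library for 32 of the 36 longest members. The part of this library and of transcript length in the members' fold changes was not tested further.

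**Figure D4:**
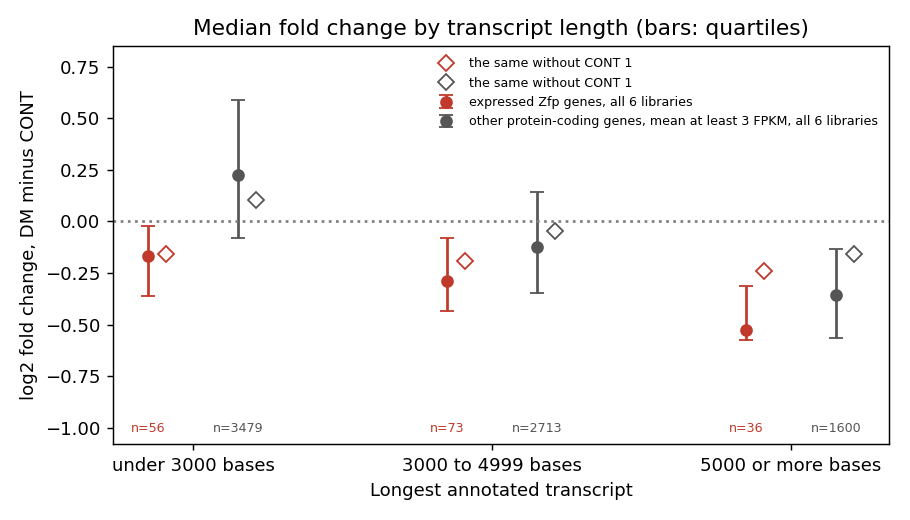
Median log2 fold change (DM minus CONT; bars are quartiles over genes) by longest annotated transcript, for the 165 members and for other protein-coding genes with a mean of at least 3 FPKM. The other genes number 3479, 2713 and 1600 from the shortest class to the longest. Open diamonds are the medians without CONT replicate 1. Members lie below the others in each class, and both groups of genes lie lower with greater length.

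The chromosome 17 cluster that holds Zfp53, Zfp943 and Zfp758 has 15 members between Zfp160 and Zfp945. DM lay below CONT in Zfp160, Zfp53, Zfp52, Zfp943, Zfp994 and Zfp758. Over all 165 members the share was 31.5%, against 13.2% of all genes tested. With all 6 libraries, the fold changes of the named genes, in that order, were -0.24, -0.83, -0.21, -0.74, -0.65 and -0.82. Zfp994 had 3.11, 3.11 and 2.73 FPKM in DM libraries, against 5.49, 4.50 and 5.77 FPKM in CONT libraries. The groups of the other members overlapped: Zfp677, Zfp54, Zfp51, Zfp995, Zfp942, Zfp944 and Zfp945 had fold changes between -0.36 and 0.03, and Zfp983 and Zfp760 had 0.17 and 0.55. Members with and without overlap thus lay side by side in the cluster.

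The head-to-head pairs in this cluster showed the same. Zfp942, on the other side of the 87 bases printed for Zfp943, had 8.37, 12.4 and 8.19 FPKM in DM libraries, against 11.9, 11.8 and 10.7 FPKM in CONT libraries. Zfp944, on the other side of the 52 bases printed for Zfp758, had 8.22, 7.48 and 8.94 FPKM in DM libraries, against 10.2, 9.20 and 8.91 FPKM in CONT libraries. Both overlapped between the groups, with fold changes of -0.25 and -0.18, while their partners Zfp943 and Zfp758 had -0.74 and -0.82.

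Some members have near-identical promoters. Among the promoter windows of 136 members found in RefSeq (250 bases before to 50 after a start, 300 bases), 6 pairs shared at least 30 words of 12 bases and aligned over at least 150 columns. Zfp943 and Zfp758 were identical at 292 of 293 aligned columns (99.7%) and Zfp942 and Zfp944 at 274 of 275 (99.6%). Zfp971 and Zfp931 on chromosome 2 shared 97.0% and had fold changes of -0.08 and -0.08, and Zfp456 and Zfp429 on chromosome 13 shared 90.3% and had -0.53 and -0.44. Zfp747 and Zfp764 on chromosome 7 shared 90.1% and had -0.44 and -0.38, and Zfp595 and Zfp953 on chromosome 13 shared 81.3% and had -0.42 and -0.38. With all 6 libraries, the fold changes within a pair differed by 0.003 to 0.09, and those without CONT replicate 1 are not given for the pairs. Such differences were not computed for other pairs of members, so nothing is set beside this range. The transcripts of these pairs also share sequence: 7.23% of the 31-mers of Zfp943 occur in Zfp758 and 7.94% the other way, 14.3% and 15.8% for Zfp942 and Zfp944, and up to 29.5% in Zfp747 and Zfp764. The share of 31-mers that occur in any other gene was 67.6% in Zfp971, 71.1% in Zfp931, 72.9% in Zfp456 and 42.3% in Zfp429. It was 55.5% in Zfp747, 48.1% in Zfp764 and 23.1% in Zfp944, and 9.64% to 19.2% in the other members of these pairs. The values of the members with 23.1% or more are thus among those given as uncertain above. The part of reads that match both genes of a pair was not tested.

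Motifs were searched on both strands of 165 promoter windows of these 136 members and of all 32851 windows in the RefSeq table. The letters CCGGAAG, read by ETS factors, were in 20.6% of member windows, against 8.86% of all windows. AAGATGGCG, the YY1 motif, was in 4.24% (7 windows) against 1.40%, and the NRF1 motif (10 letters) in 3.03% (5 windows) against 0.971%. The core of the element that Zfp143 binds (11 letters) was in 3.03% (5 windows) against 0.286%. GGGGAGGGG, a G-rich site of the kind bound by Zfp281 and Zfp148, was in 5.45% against 6.37%. The E-box CACGTG, added after the sequences above had been seen, was in 8.48% (14 windows) against 7.15%. Zfp942, Zfp943, Zfp944 and Zfp758, whose starts flank the printed stretches, are among the members with it. The shares thus count the sequences from which the E-box was picked and are no test of it. Windows of members held a median of 15 CG dinucleotides against 7 in all windows. The median was 10 in windows of members with the KRAB pattern and 21 in those of the others. In the 51 windows of members with DM below CONT, CCGGAAG was in 19.6% and the E-box in 11.8% (6 windows, those of Zfp943 and Zfp758 included). The NRF1 and Zfp143 motifs were in 1.96% each, and the YY1 motif and the G-rich site in 0 windows. These are matches of letters, not measured binding, and some genes have more than 1 window. The full set of windows was not limited to expressed protein-coding genes, as the members were, and no such set was searched.

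Genes that work with the members are set beside all genes tested, of which 1.52% were called and 51.2% had a fold change below 0. Of the corepressor and heterochromatin genes that KRAB proteins recruit, 0 of 34 tested were called, 23 were below 0 and the median was -0.16, or -0.05 without CONT replicate 1. Trim28, the KRAB partner, averaged 29.1 ± 3.82 FPKM in DM and 34.5 ± 5.71 FPKM in CONT, and Setdb1 8.83 ± 0.50 FPKM in DM and 11.4 ± 2.33 FPKM in CONT, both with overlapping groups. Daxx, a histone H3.3 chaperone, had 12.5, 13.5 and 13.7 FPKM in DM libraries, against 23.4, 20.1 and 16.4 FPKM in CONT libraries. Its groups did not overlap, nor did those of its partner Atrx and of Chd4, with fold changes of -0.55, -0.61 and -0.72 (adjusted p 0.262, 0.310 and 0.297). Without CONT replicate 1 these were -0.43, -0.35 and -0.47. Chd3 overlapped, at -0.93, and at -0.60 without CONT replicate 1. The histone H3.3 genes H3f3a and H3f3b had DM above CONT in every library, with fold changes of 0.79 and 0.50 (adjusted p 0.319 and 0.384), and of 0.44 and 0.37 without CONT replicate 1.

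The AU-rich mRNA decay genes around Zfp36 had 0 of 34 called, against 1.52% of all genes tested, and 25 below 0 (73.5%, against 51.2%). Their median was -0.27, or -0.08 without CONT replicate 1. Cnot6l and Cnot4, of the CCR4-NOT complex that shortens poly(A) tails, had fold changes of -0.65 and -0.46 and no overlap between groups (adjusted p 0.288 and 0.285). Without CONT replicate 1 these fold changes were -0.42 and -0.39. Among the relatives of Zfp36, Zfp36l1 averaged 51.7 ± 13.4 FPKM in DM and 82.8 ± 33.6 FPKM in CONT, and Zfp36l2 149 ± 31.1 FPKM in DM and 107 ± 6.87 FPKM in CONT, both with overlapping groups. Of mRNAs known as Zfp36 targets, 9 were tested, 8 were above 0 with a median of 0.88, and 1 was called. The median was 0.71 without CONT replicate 1, and 0.66 under scaling to the same total, with 3 then below 0. With the other-cell marker score as a covariate it was 0.46. Ccl3, a chemokine that macrophages and basophils also make, rose: it had 7.85, 11.6 and 12.7 FPKM in DM libraries, against 0.55, 0.67 and 1.54 FPKM in CONT libraries, a fold change of 2.62 (adjusted p 0.0103). It was not called with the other-cell marker score as a covariate or with no filter on low values, where no gene of the pathway lists passed. Markers of both cell types were higher in DM, as given above. The part of other cells in the levels of Ccl3 and the other mRNAs of this list was not tested. Ccl4, Ier3 and Il10 had fold changes of 1.47, 1.41 and 0.88 with DM above CONT in every library (adjusted p 0.0842, 0.0904 and 0.200), and Tnf -0.01.

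The ribosome-associated quality control genes around Zfp598 had 0 of 23 called and 16 below 0 (69.6%). Of all genes tested, 1.52% were called and 51.2% were below 0. The median of this list was -0.25, or -0.13 without CONT replicate 1. Gigyf2, which represses translation of faulty mRNAs, had 5.24, 5.50 and 5.53 FPKM in DM libraries, against 10.9, 8.70 and 6.58 FPKM in CONT libraries. Its groups did not overlap, with a fold change of -0.58 (adjusted p 0.267), and of -0.42 without CONT replicate 1. The other zinc finger regulators of T cells had 0 of 35 called and 30 below 0, with a median of -0.40, or -0.14 without CONT replicate 1. Zbtb7b (ThPOK), which commits T cells to the CD4 lineage, had 14.6, 23.1 and 13.3 FPKM in DM libraries, against 30.9, 29.9 and 26.4 FPKM in CONT libraries. Its groups did not overlap, with a fold change of -0.77 (adjusted p 0.219), and of -0.73 without CONT replicate 1. The nuclear-retained RNAs had 0 of 14 called and 11 below 0, with a median of -0.15, or -0.11 without CONT replicate 1.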

How the data were processed

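The authors deposited 1 table with an FPKM value per gene and library, their p-value and q-value, a ratio (fold change) of group means and its log2. Cutadapt 1.9, FastQC and build GRCm38 are named in the submitters' processing notes, and an aligner, a quantifier and the authors' test were not given in the sources used here. Values from the authors' test, that is their p-values, ratios and log2 values, are quoted only as theirs. No depth can be read from the table, and counting intervals are left out.

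From the deposited FPKM values, log2(FPKM + 1) was fitted with limma 3.58.1 in R 4.3.3 (trended, robust prior, no covariate) on the 13106 genes with a mean of at least 1 FPKM in either group. A gene is called at a Benjamini-Hochberg adjusted p below 0.05 over all of them. A fold change is the difference on this scale, DM minus CONT, which understates the change of low genes. The procedure was tested on simulated data with independent noise for each gene. Those data hold no library that differs over many genes at once, as CONT replicate 1 did, so the test does not cover that case. Means and SDs are over 3 libraries.

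Identifiers were matched to GENCODE M21 for 28864 of 28945 rows. Fingers were counted in translated coding sequences as C, 2 to 4 residues, C, 12 residues, H, 3 to 5 residues, H, and the KRAB pattern needed 7 of 8 positions. Promoter sequences are from RefSeq. Named members were, by rule, the 10 highest and 10 lowest fold changes, the 8 highest means, 3 on each side of the level, the 4 most variable, a list of known genes and up to 4 genes per gene list. Zfp683, Zfp646, Zfp961, Zfp36l1, Zfp36l2, Trim28, Setdb1, Tnf and the members in the chromosome 17 cluster and the promoter pairs were named after their values were seen. The members and all lists were chosen with earlier results of these data known. Alternatives were other scalings, filters, pseudocounts, thresholds and levels, a replicate block, quality weights, a marker covariate and leaving out each library. Plots were made in Python 3.11.15 with matplotlib 3.10.9.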

Additional observations from a re-analysis of the deposited data

How the results depend on the processing

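No member was called under any scaling, filter or pseudocount, with the replicate block, with the marker covariate, with any library left out, or with members of at least 1 or 5 FPKM. Library quality weights called 7 of 165 members and 871 of the 13106 genes tested. Those weights called 5 genes of the pathway lists, against 1 in the fit reported, and 0 with no filter and with the covariate. A threshold of adjusted p below 0.1 gave 2 members, with no share of all genes set beside that count. An unadjusted p below 0.05 in limma gave 20 (12.1%, against 16% of all genes tested). With 1 library left out, members called ranged from 0 to 0, list genes called from 1 to 1, the median from -0.36 to -0.21 and members without overlap from 60 to 102, where fewer libraries make overlap rarer. Over the other alternatives the median kept its sign. Total scaling moved it to -0.61 and the members without overlap to 91 (55.2%, against 31.5% of all genes, whose median it also lowers). Upper-quartile scaling gave 45 (27.3%, against 27.4% of all genes), so that the total count was then at the share of all genes. That count has no value under settings that leave the levels as they are.

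Replicate numbers are shared by the groups, but deviations of same-numbered libraries correlated at -0.36, -0.38 and -0.20, which shows no shared deviation. The deviations were taken from the mean of 3 libraries in each group, so these values are tied to each other. They cannot tell whether same-numbered libraries were collected or processed together. With the replicate block 0 members were called (204 of all genes) and 7 had an unadjusted p below 0.05. No share of all genes is set beside that last count.

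Of all 165 members, 24 changed sign under total scaling, 30 with the covariate, 14 with quality weights, 9 under upper-quartile scaling, 2 under median-of-ratios scaling and 8 to 19 with 1 library left out. Among the 48 members followed by name, total scaling gave -0.31 for Zfp131, -0.32 for Zfp207, -0.046 for Zfp36, -0.098 for Zfp622, -0.22 for Zfp706, -0.090 for Zfp825 and -0.029 for Zfp991. The covariate gave 0.14 for Zfp51, -0.027 for Zfp706, 0.094 for Zfp800, 0.021 for Zfp882 and 0.36 for Zfp984. Upper-quartile scaling gave 0.014 for Zfp830, quality weights -0.19 for Zfp131, and median-of-ratios scaling without CONT replicate 1, chosen after seeing the data, -0.14 for Zfp131 and 0.10 for Zfp703. With 1 library left out, Zfp131 ranged from -0.14 to 0.16, Zfp207 from -0.11 to 0.16, Zfp36 from -0.035 to 0.85, Zfp703 from -0.28 to 0.10 and Zfp830 from -0.14 to 0.051. Zfp53, Zfp943, Zfp758 and Zfp760 passed the threshold with quality weights (adjusted p 0.0149, 0.0182, 0.0140 and 0.0471).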
